A study of Rattus norvegicus with 18 samples.

Results

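The Ier, Btg and Tob genes include early response genes, and their products act on growth signals and on the life of messenger RNA. The genes were examined here in cultured rat hippocampal neurons carrying MEF2-specific or control shRNAs and depolarized with KCl. The 8 genes are Ier2, Ier3, Ier5, Btg1, Btg2, Btg3, Tob1 and Tob2. Probe sets were chosen by name: every probe set, that is a group of short oligonucleotides on the array read out as 1 value, whose symbol in the platform annotation is 1 of these genes. That gave 9 probe sets out of 31099, for 7 of the 8 genes and of the 14218 genes that the annotation names by a single symbol, with 3 for Ier5 and 1 for each of the others. Expression of Btg2 was not analysed here.

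There were 6 groups of 3 arrays: MEF2 RNAi neurons at 0, 1 and 6 h of KCl, and control neurons at 0, 1 and 6 h. All 18 arrays come from dissociated hippocampal neurons cultured for 10 days that had been transduced with lentivirus on day 3, so the control neurons carry virus and control shRNAs as well. Every culture had the NMDA receptor blocker AP5 and the sodium channel blocker TTX for 1 h before 55 mM KCl, which depolarizes the membrane and lets calcium in. The 0 h arrays are therefore neurons silenced by these blockers, not untreated ones. The labels call the 3 arrays of a group biological replicates and say nothing more about the cultures, so p-values measure the spread between these arrays. The knockdown was incomplete. Mef2a stood at 32.8%, 26.5% and 27.6% of control at 0, 1 and 6 h, and its other 3 probe sets were lower as well. Mef2d stood at 69.5%, 74.7% and 67.5%, while its second probe set did not pass the test (mean log2 difference -0.07, adjusted p = 0.142). Of 13 neuron markers 12 passed the filter on dim signal, and Gad2 did not. The 5 markers of proliferating cells passed, so the cultures were not read as neurons alone. All 7 astrocyte markers passed, as did 3 of 6 oligodendrocyte lineage markers (not Mog, Mag or Olig2), 6 of 8 microglia and macrophage markers (not Cx3cr1 or Ptprc) and 6 of 8 endothelial and fibroblast markers (not Pecam1 or Flt1).

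Immediate early genes are transcribed within minutes of a stimulus from factors already in the cell, and in neurons calcium entry is such a stimulus, acting largely through CREB and serum response factor. Ier2, Ier3 and Ier5 encode small proteins of this class. IER2 and IER5 are related nuclear proteins, IER5 acting with the phosphatase PP2A on the heat shock factor HSF1. IER3 is an unrelated protein that acts on cell death and ERK signalling. BTG and TOB proteins form the antiproliferative family. They share a domain that binds the deadenylases CNOT7 and CNOT8 of the CCR4-NOT complex, so that they speed the removal of poly(A) tails, and TOB proteins also bind the poly(A)-binding protein. In neurons, which do not divide, they have been studied in maturation, survival and learning.

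Upstream sequences are shown for the 3 genes that rose within 1 h (Ier2, Tob1 and Btg1) and, to set beside them, for Btg3, which rose later. Each is the 250 bases before the gene's start in RefSeq on build GRCr8, 5′ to 3′ on the gene's own strand. Capitals mark motif matches.
Ier2, chr19:40399123-40399372, + strand: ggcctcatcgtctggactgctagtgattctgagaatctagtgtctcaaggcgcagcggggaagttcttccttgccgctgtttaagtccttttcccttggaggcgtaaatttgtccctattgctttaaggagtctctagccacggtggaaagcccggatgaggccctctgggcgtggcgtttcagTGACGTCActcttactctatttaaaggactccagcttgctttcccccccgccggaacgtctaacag
Tob1, chr10:79659743-79659992, + strand: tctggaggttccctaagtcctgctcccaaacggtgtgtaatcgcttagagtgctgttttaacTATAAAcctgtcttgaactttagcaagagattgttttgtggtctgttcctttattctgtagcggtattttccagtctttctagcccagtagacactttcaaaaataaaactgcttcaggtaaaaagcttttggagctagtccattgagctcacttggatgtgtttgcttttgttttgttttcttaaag
Btg1, chr7:33227899-33228148, + strand: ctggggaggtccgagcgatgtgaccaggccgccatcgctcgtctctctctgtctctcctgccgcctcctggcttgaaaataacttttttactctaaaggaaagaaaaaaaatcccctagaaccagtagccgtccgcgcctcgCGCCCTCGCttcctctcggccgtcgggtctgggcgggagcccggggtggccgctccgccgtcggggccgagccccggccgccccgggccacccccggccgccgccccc
Btg3, chr11:30532982-30533231, - strand: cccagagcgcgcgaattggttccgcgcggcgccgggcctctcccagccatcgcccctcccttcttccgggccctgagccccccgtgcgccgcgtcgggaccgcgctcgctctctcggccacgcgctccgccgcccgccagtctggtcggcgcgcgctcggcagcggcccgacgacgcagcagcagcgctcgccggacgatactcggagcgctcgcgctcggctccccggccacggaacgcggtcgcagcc
The motifs searched on both strands were the full CREB site (CRE, TGACGTCA), its core TGACG, which the full site contains, the AP-1 site TGANTCA, the EGR site GCGNGGGCG, the TATA box TATAAA, the CArG box of serum response factor and the MEF2 site. The capitals in Ier2 are a full CRE whose first base lies 66 bases upstream of the start, a motif present in 1.59% of the 33469 promoters of the same length. The capitals in Btg1 are an EGR site on the opposite strand, 108 to 100 bases upstream, a motif in 4.29% of promoters. Those in Tob1 are TATAAA, 188 bases upstream, in 12.9% of promoters. Btg3 held none of the motifs. Of the 7 members with a promoter in the table, none held a CArG box (1.5% of promoters), a MEF2 site (2.96%) or an AP-1 site (6.34%). Among those not printed, Btg2 held a CRE 201 bases and an EGR site 166 bases upstream, Ier5 a TATAAA 45 bases upstream and Tob2 the core TGACG 65 bases upstream, the core being in 18.2% of promoters. Ier3 is named only. These are matches of letters in windows that rest on the RefSeq start, not binding sites.

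Of the 9 probe sets, 7 passed the filter on dim signal, 1 for each of Ier2, Ier3, Ier5, Btg1, Btg3, Tob1 and Tob2, and each of them passed on all 18 arrays. In RNAi neurons 3 of these 7 had risen at 1 h over 0 h and none had fallen, where 1.14% of the 19567 probe sets tested rose and 2.04% fell. In control neurons it was 3 of 7 and none, where 1.22% of all rose and 1.02% fell. At 6 h over 0 h 4 of 7 had risen and none had fallen in RNAi neurons, where 14.7% of all rose and 21.8% fell. In control neurons 5 of 7 had risen and none had fallen, where 15.9% of all rose and 21.7% fell. The median log2 difference of the 7 was 0.39 at 1 h and 0.49 at 6 h in RNAi neurons, and 0.70 and 0.45 in control neurons. That of all probe sets tested lay between -0.02 and 0.00 in these comparisons. A rise or fall here is an adjusted p under 0.05 in limma, with adjustment over all probe sets tested. The 2 arms share no arrays, but they are not independent repeats. Arrays with the same replicate number had correlated deviations from their group means (r = 0.10 to 0.72 over all pairs of groups). The main fit leaves this pairing out.

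**Figure D1:**
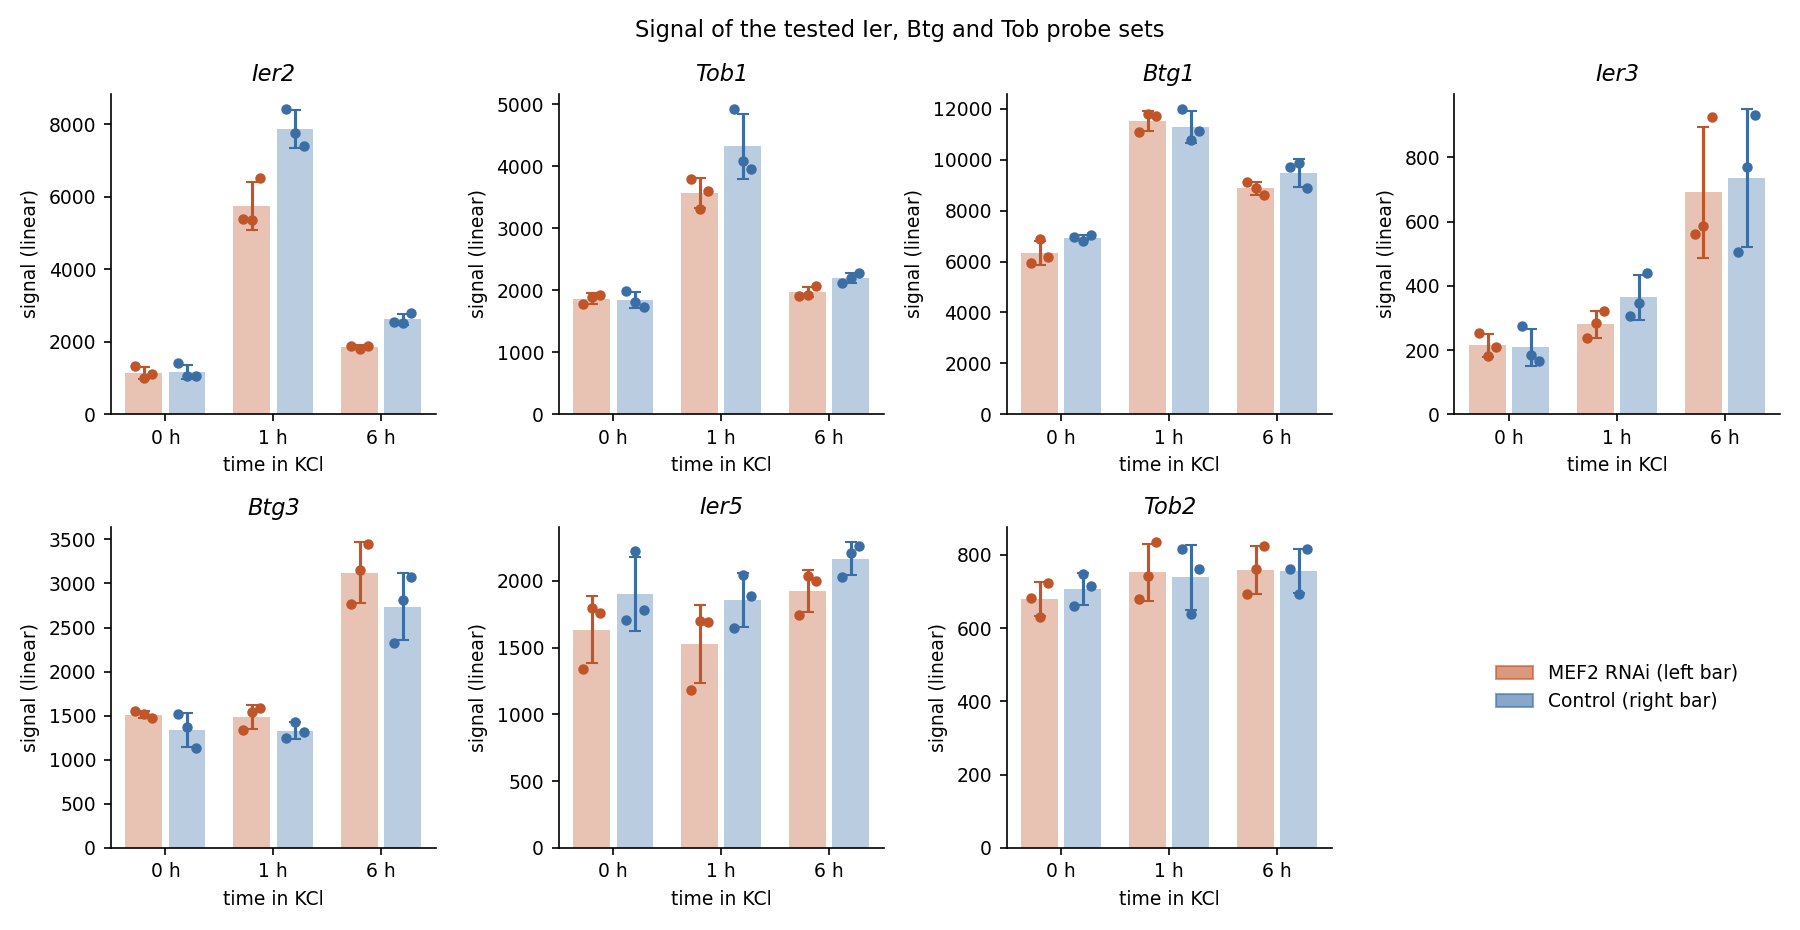
Signal on a linear scale (vertical axis) of the 7 tested probe sets at 0, 1 and 6 h of KCl, with MEF2 RNAi left of control at each time. Points are arrays, bars are means of 3 arrays and error bars are SD; Ier2, Tob1 and Btg1 are highest at 1 h, Ier3 and Btg3 at 6 h.

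Ier2 was the member with the largest rise at 1 h. Its signal in RNAi neurons was 1329, 1002 and 1101 at 0 h, 5386, 5368 and 6514 at 1 h, and 1881, 1813 and 1899 at 6 h. In control neurons it was 1404, 1062 and 1070 at 0 h, 8431, 7765 and 7408 at 1 h, and 2540, 2517 and 2796 at 6 h. In both arms every 1 h array stood above every 6 h array, and every 6 h array above every 0 h array. The 1 h rise was 5.04-fold in RNAi neurons (log2 2.33, SE 0.12, adjusted p = 4.32e-09) and 6.72-fold in control neurons (log2 2.75, SE 0.12, adjusted p = 4.94e-10). By size of the difference Ier2 ranked 23 among all probe sets in RNAi neurons and 18 in control neurons. At 6 h it was still above 0 h, 1.64-fold in RNAi neurons (adjusted p = 0.000167) and 2.24-fold in control neurons (adjusted p = 1.29e-06). The order of its 6 group means, from low to high, was RNAi 0 h, control 0 h, RNAi 6 h, control 6 h, RNAi 1 h and control 1 h. Arrays of neighbouring groups in that order overlapped for the 0 h pair alone.

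Tob1, whose protein carries deadenylases to messenger RNAs and dampens SMAD signalling, had a shorter rise. Its signal in RNAi neurons was 1776, 1895 and 1933 at 0 h, 3797, 3314 and 3602 at 1 h, and 1916, 1931 and 2075 at 6 h. Control neurons gave 1983, 1810 and 1737 at 0 h, 4930, 4093 and 3954 at 1 h, and 2112, 2208 and 2284 at 6 h. Only the 1 h arrays stood far from the rest. The 1 h rise was 1.91-fold in RNAi neurons (log2 0.93, SE 0.08, adjusted p = 4.43e-06) and 2.34-fold in control neurons (log2 1.23, SE 0.08, adjusted p = 1.89e-07). At 6 h the RNAi arrays overlapped those at 0 h (log2 0.08, SE 0.08, adjusted p = 0.492), and the control arrays lay just above theirs (log2 0.26, SE 0.08, adjusted p = 0.0222). That last call was lost without Control 0 h replicate 2 (adjusted p = 0.0659), Control 0 h replicate 3 (0.0919), Control 6 h replicate 2 (0.0555) or Control 6 h replicate 3 (0.078).

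Btg1, a partner of the arginine methyltransferase PRMT1 and known for keeping lymphocytes quiescent, rose at 1 h and stayed up. Its signal in RNAi neurons was 5940, 6881 and 6196 at 0 h, 11086, 11791 and 11702 at 1 h, and 9115, 8873 and 8627 at 6 h. The control arrays read 6981, 6815 and 7025 at 0 h, 11998, 10785 and 11106 at 1 h, and 9706, 9875 and 8870 at 6 h. The 3 times did not overlap in either arm, while the 2 arms overlapped at every time. The 1 h rise was 1.82-fold in RNAi neurons (log2 0.86, SE 0.07, adjusted p = 7.53e-07) and 1.63-fold in control neurons (log2 0.70, SE 0.07, adjusted p = 7.50e-06). At 6 h Btg1 was still 1.40-fold over 0 h in RNAi neurons (adjusted p = 2.63e-05) and 1.37-fold in control neurons (adjusted p = 5.21e-05).

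Between 1 h and 6 h these 3 genes fell and Ier3 and Btg3 rose, in both arms. Thus 2 of 7 were higher at 6 h than at 1 h in RNAi neurons, where 12.5% of all probe sets were, and 3 of 7 were lower, where 14.7% were. In control neurons the counts were also 2 and 3, against 13.9% and 17.9%. The fall from the 1 h level was 1.62 on the log2 scale for Ier2 in RNAi neurons (log2 -1.62) and 1.59 in control neurons (log2 -1.59). For Tob1 the log2 difference of 6 h from 1 h was -0.85 in RNAi neurons and -0.97 in control neurons. For Btg1 it was -0.38 in RNAi neurons (adjusted p = 0.000442) and -0.25 in control neurons (adjusted p = 0.00734), the control call missing the threshold when only the groups compared were fitted (adjusted p = 0.0515).

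Ier3 and Btg3 were highest at 6 h. Ier3, also known as IEX-1, had a signal in RNAi neurons of 254, 182 and 208 at 0 h, 237, 285 and 320 at 1 h, and 562, 585 and 926 at 6 h. The values in control neurons were 274, 184 and 167 at 0 h, 305, 348 and 441 at 1 h, and 504, 770 and 932 at 6 h. Every 6 h array stood above every earlier one in both arms, with a wide spread within each group. The 6 h rise was 3.16-fold in RNAi neurons (log2 1.66, SE 0.25, adjusted p = 6.90e-05) and 3.51-fold in control neurons (log2 1.81, SE 0.25, adjusted p = 2.75e-05). At 1 h the control arrays already lay above their 0 h arrays, yet the log2 difference of 0.82 (SE 0.25) missed the threshold with an adjusted p of 0.119. In RNAi neurons that difference was 0.39 (adjusted p = 0.513) and the arrays overlapped.

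Btg3, a family member that restrains the cell cycle factor E2F1, showed no early step. Its signal in RNAi neurons was 1555, 1514 and 1468 at 0 h, 1335, 1538 and 1585 at 1 h, and 2763, 3150 and 3452 at 6 h. Its control values were 1515, 1373 and 1129 at 0 h, 1241, 1431 and 1319 at 1 h, and 2323, 2808 and 3074 at 6 h. The 0 h and 1 h arrays overlapped in both arms, and all 6 h arrays were higher. The log2 difference at 1 h was -0.03 in RNAi neurons (95% interval -0.28 to 0.22) and 0.00 in control neurons (-0.25 to 0.25). The 6 h rise was 2.06-fold in RNAi neurons (log2 1.04, SE 0.12, adjusted p = 5.70e-06) and 2.04-fold in control neurons (log2 1.03, SE 0.12, adjusted p = 5.43e-06).

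Tob2, the close relative of Tob1, was not called in any KCl comparison. Its signal in RNAi neurons was 683, 630 and 724 at 0 h, 679, 742 and 834 at 1 h, and 693, 761 and 823 at 6 h. Control arrays gave 660, 746 and 715 at 0 h, 815, 639 and 761 at 1 h, and 761, 693 and 815 at 6 h. Its groups overlapped throughout, with a log2 difference at 1 h of 0.14 in RNAi neurons (95% interval -0.07 to 0.36) and of 0.06 in control neurons (-0.16 to 0.27). Tob1 and Tob2 thus stood apart in their values at 1 h, although the difference between the 2 genes was not tested.

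Ier5 missed the threshold in every KCl comparison of the fit without a replicate term. Its bright probe set read 1343, 1798 and 1759 at 0 h, 1186, 1698 and 1694 at 1 h, and 1746, 2035 and 1999 at 6 h in RNAi neurons. In control neurons it read 1708, 2222 and 1779 at 0 h, 1643, 2041 and 1888 at 1 h, and 2028, 2209 and 2261 at 6 h. Replicate 1 was the lowest array in each of the 6 groups. The log2 difference of 6 h from 0 h was 0.25 in RNAi neurons (SE 0.15, adjusted p = 0.210) and 0.20 in control neurons (SE 0.15, adjusted p = 0.342), and that of 6 h from 1 h was 0.35 (adjusted p = 0.0918) and 0.23 (adjusted p = 0.281) in the same arms. With the replicate number as a block, which removes this shared offset, the adjusted p was 0.0228 for RNAi 6 h over 0 h, 0.00333 for RNAi 6 h over 1 h, 0.0392 for control 6 h over 1 h and 0.0654 for control 6 h over 0 h. At 1 h over 0 h its log2 difference was -0.11 in RNAi neurons (95% interval -0.42 to 0.21) and -0.03 in control neurons (-0.34 to 0.28).

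The other 2 Ier5 probe sets were dim, at 115 to 150 for 1375202_at and 96.7 to 142 for 1389882_at, below the 40th percentile of every array (a signal of 154 to 164). Over the 18 arrays 1389882_at correlated with the bright probe set at r = 0.80 and 1375202_at at r = 0.16, so the probe sets disagreed. When the filter was dropped, 1375202_at was called at 6 h over 0 h in RNAi neurons (log2 0.25, SE 0.05, adjusted p = 0.00187), with all RNAi 6 h arrays (134 to 150) above the 0 h arrays (116 to 122). In control neurons it was not called (log2 0.05, adjusted p = 0.578). The relatives Ier5l and Btg4 did not pass the filter either, Ier5l reading 84 to 155 and Btg4, an oocyte factor, 32.2 to 37.3, under the floor of 72.6 on all 18 arrays.

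**Figure D2:**
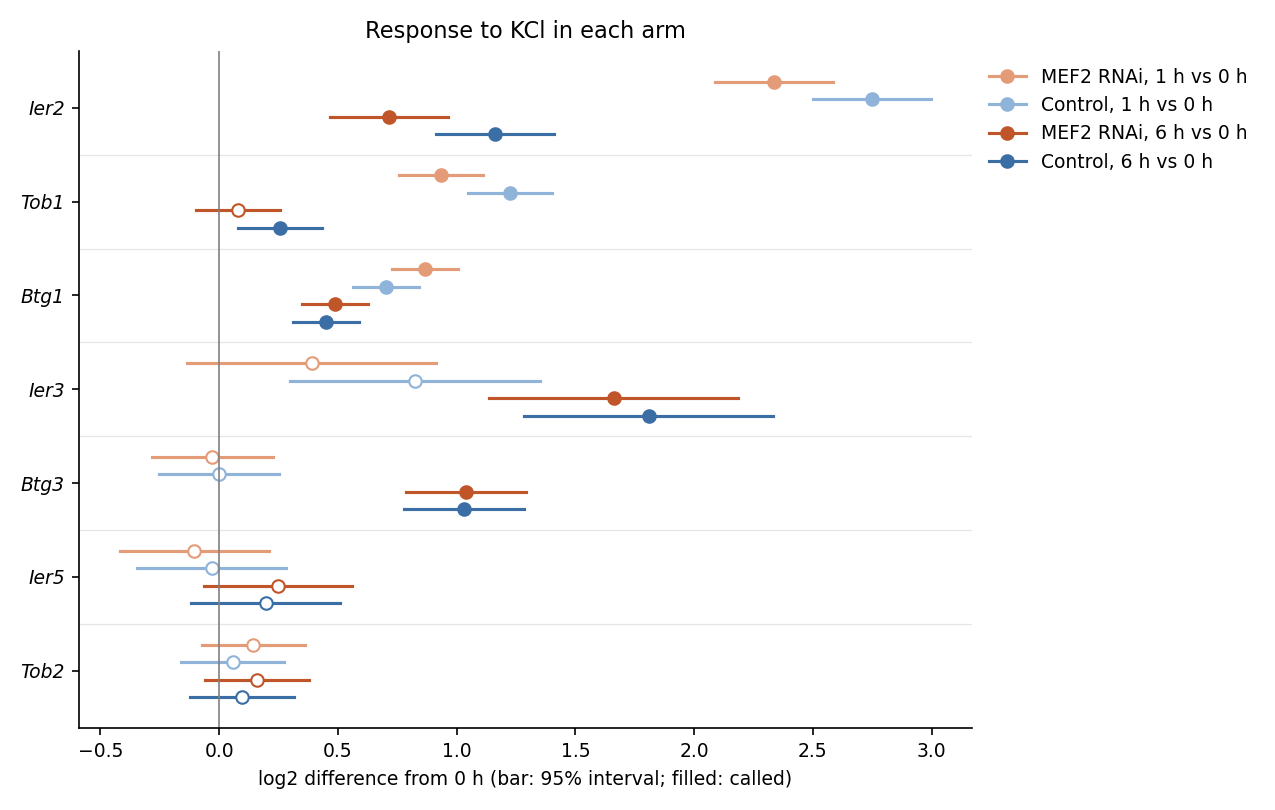
Difference from 0 h on the log2 scale (horizontal axis) at 1 h and 6 h of KCl for each tested gene (vertical axis), with MEF2 RNAi above control for each time. Bars are 95% intervals and filled points passed an adjusted p of 0.05; Ier2, Tob1 and Btg1 pass at 1 h, Ier3 and Btg3 at 6 h alone, Ier5 and Tob2 at neither time.

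The same 2 timings separated the members in pairwise correlations of log2 signal over the 18 arrays, which are descriptions: the arrays share 3 times and 2 arms, so r mixes the time pattern with the spread within groups. Ier2 and Tob1 had r = 0.96, Ier2 and Btg1 0.92, and Tob1 and Btg1 0.84. Ier3 and Btg3 had r = 0.88. Across the groupings values were low, from -0.37 for Btg3 with Tob1 to 0.37 for Btg1 with Ier3. Ier5 reached at most 0.49, with Ier3, and Tob2 at most 0.43, also with Ier3.

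**Figure D3:**
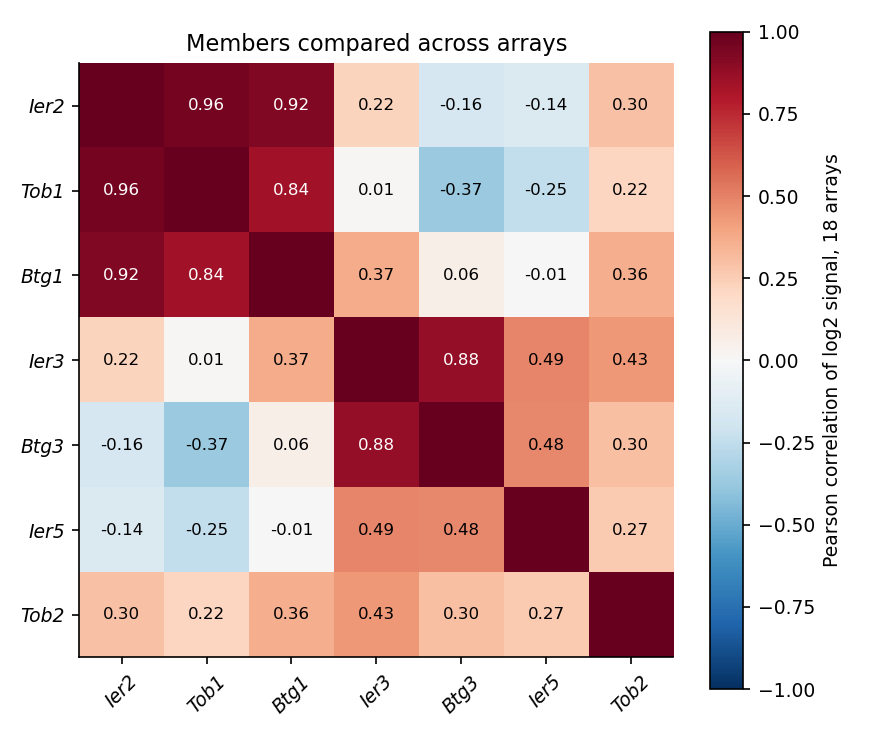
Pearson correlation of log2 signal over 18 arrays for each pair of tested genes, on a colour scale from -1 to 1. Ier2, Tob1 and Btg1 form 1 block (0.84 to 0.96) and Ier3 with Btg3 another (0.88).

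Each member was also set against all other probe sets with a gene name. The 3 most like Ier2 were Egr4 (r = 0.97), Clk1 (0.97) and Klf4 (0.97), Egr4 and Klf4 being zinc finger transcription factors. Those most like Tob1 were Arc (0.97), the synaptic immediate early gene, Ier2 itself (0.96) and Clk1 (0.95). Btg1 was closest to Gadd45g (0.97), Junb (0.97) and Rsrp1 (0.96). Ier3 and Btg3 had other neighbours. Ier3 was closest to Tmem167b (0.96), Snx18 (0.96) and Spry4 (0.95), an inhibitor of receptor tyrosine kinase signalling, and Btg3 to Stc1 (0.98), Sec24d (0.98) and Rbms2 (0.97). Ier5 was closest to Polr3d (0.92), Tafa2 (0.91) and Smap2 (0.91). Tob2, with the lowest values, was closest to Mtpn (0.82), Sf1 (0.81) and Hspa9 (0.81).

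MEF2 knockdown was the second comparison, asked because the study sought activity-regulated genes under MEF2 control. At 0 h none of the 7 members differed between RNAi and control neurons, at an unadjusted p under 0.05 either, where 7.31% of all probe sets were higher and 6.02% lower. At 1 h 2 of 7 were lower in RNAi neurons, Ier2 and Tob1, and none higher, where 8.73% of all were lower and 6.37% higher. At 6 h 1 of 7 was lower, Ier2, where 8.02% were lower and 6.97% higher. Over the 3 times together 3 of 7 were lower, Ier2, Tob1 and Ier5, where 16.6% were lower and 17.2% higher. The 1 of 7 at 6 h is close to the share of the whole table and is given as a value of Ier2, not of the members.

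Ier2 in RNAi neurons stood at 73.0% of control at 1 h (log2 -0.45, SE 0.12, adjusted p = 0.0146) and at 71.3% at 6 h (log2 -0.49, SE 0.12, adjusted p = 0.0100). The RNAi arrays lay below all control arrays at both of these times and overlapped them at 0 h (log2 -0.04, SE 0.12, adjusted p = 0.870). The 6 h call held with each array left out. The 1 h call was lost without MEF2 RNAi 1 h replicate 1 (adjusted p = 0.0651), MEF2 RNAi 1 h replicate 2 (0.0618) or Control 1 h replicate 1 (0.0651). Averaged over the 3 times the log2 difference was -0.33 (SE 0.07, adjusted p = 0.00129).

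Tob1 in RNAi neurons stood at 82.8% of control at 1 h, again with all RNAi arrays below all control arrays (log2 -0.27, SE 0.08, adjusted p = 0.0372). This call did not survive dropping the filter (adjusted p = 0.0587), fitting only the groups compared (0.149), or leaving out MEF2 RNAi 1 h replicate 2 (0.150), MEF2 RNAi 1 h replicate 3 (0.082) or Control 1 h replicate 1 (0.177). At 6 h its arrays also lay below those of control, and the log2 difference of -0.16 missed the threshold (SE 0.08, adjusted p = 0.246). Btg1, the other gene that peaked at 1 h, had a log2 difference of 0.03 there (95% interval -0.11 to 0.17).

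The RNAi minus control difference of Ier5 was -0.22, -0.30 and -0.17 on the log2 scale at 0, 1 and 6 h, none of which passed alone. With the replicate block the 1 h difference passed (adjusted p = 0.0156). Its average over the times was -0.23 (SE 0.09, adjusted p = 0.0474), and the average of Tob1 was -0.14 (SE 0.05, adjusted p = 0.0378). Both calls were lost without the filter on dim probe sets, at an adjusted p of 0.103 for Ier5 and 0.0558 for Tob1. The Ier5 call was lost at adjusted p of 0.0513 to 0.102 without any 1 of 11 arrays: replicate 1 of MEF2 RNAi at each time, replicates 2 and 3 of MEF2 RNAi at 6 h, and replicates 2 and 3 of control at each time. The Tob1 call was lost at 0.051 to 0.0813 without any 1 of 11 arrays: MEF2 RNAi replicates 1 and 2 at 0 h, 2 and 3 at 1 h and 1 and 2 at 6 h, and control replicates 1 and 2 at 0 h, 1 at 1 h and 2 and 3 at 6 h.

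For Btg3 the same difference was 0.19, 0.16 and 0.19 on the log2 scale at 0, 1 and 6 h, with overlapping arrays. Its average of 0.18 (SE 0.07) missed the threshold at an adjusted p of 0.0563 and passed it with the replicate block (0.0393) and with quantile normalization (0.0493). It also passed at 0.0251 to 0.0491 without any 1 of 5 arrays, which were Control 0 h replicate 1, MEF2 RNAi 1 h replicate 1, Control 1 h replicate 2, MEF2 RNAi 6 h replicate 1 and Control 6 h replicate 3. Ier3 and Tob2 were not called. The 95% interval of the difference at 6 h was -0.61 to 0.44 for Ier3 and -0.21 to 0.22 for Tob2.

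**Figure D4:**
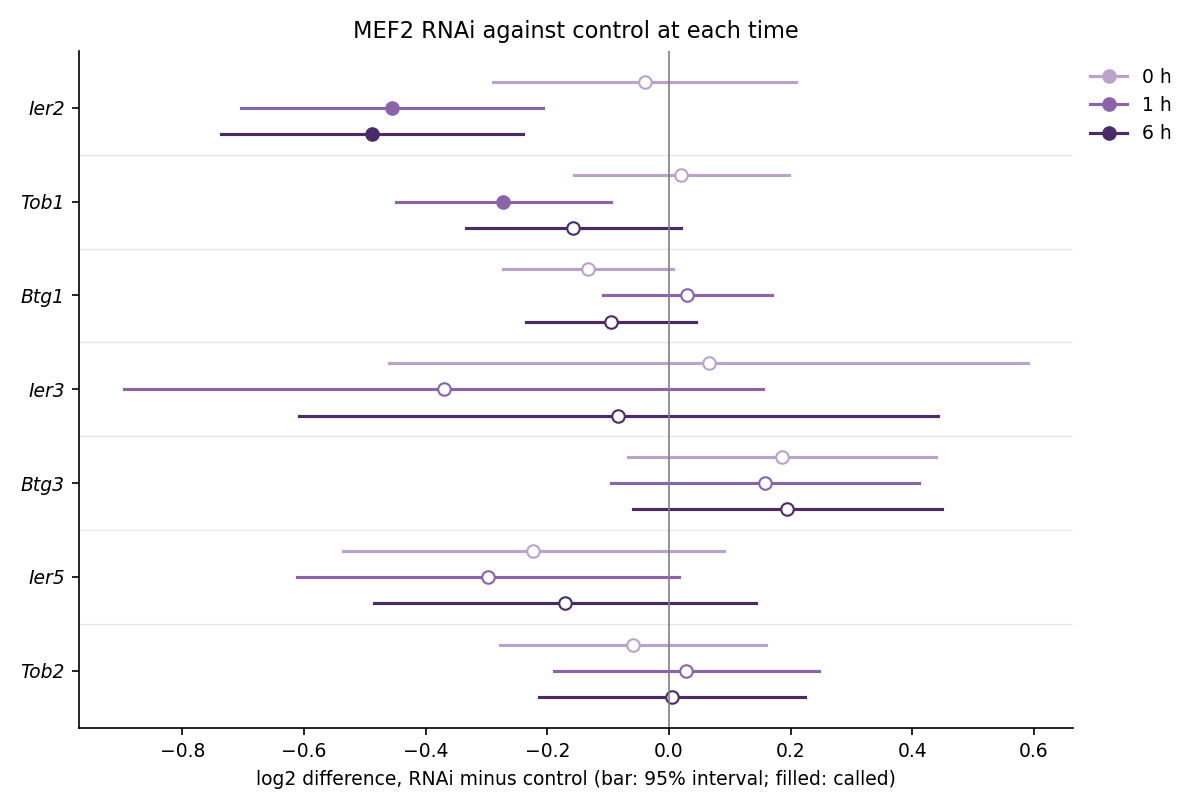
Difference of MEF2 RNAi minus control on the log2 scale (horizontal axis) for each tested gene at 0, 1 and 6 h of KCl. Bars are 95% intervals and filled points passed an adjusted p of 0.05; the points that pass are Ier2 at 1 h and 6 h and Tob1 at 1 h, all below 0.

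Whether the response to KCl itself differed between the arms was tested as an interaction, the KCl difference of RNAi neurons minus that of control neurons. None of the 7 members was called by limma at 1 h, where 0% of all probe sets were, or at 6 h, where 0.143% were. At an unadjusted p under 0.05 there were 2 members at 1 h, Ier2 and Tob1, and 1 at 6 h, Ier2. The interaction of Ier2 was -0.41 at 1 h (95% interval -0.77 to -0.06, unadjusted p = 0.0236, adjusted p = 1) and -0.45 at 6 h (-0.80 to -0.10, unadjusted p = 0.0157, adjusted p = 0.445). That of Tob1 was -0.29 at 1 h (-0.54 to -0.04, unadjusted p = 0.0246, adjusted p = 1). A difference between the arms in the KCl response of these genes thus did not pass the test.

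Markers of some cell types in such cultures differed with RNAi as well. Over the 3 times together 16.6% of all probe sets were lower and 17.2% higher. None of the 3 oligodendrocyte lineage, 6 microglia and macrophage or 5 proliferating cell markers tested was called. The summed signal of the 13 neuron markers spanned 40976 to 48693 on RNAi arrays and 46152 to 51637 on control arrays. Of the 12 that passed the filter 6 were lower and 1 was higher over the 3 times. The sum of 7 astrocyte markers spanned 38397 to 48223 on RNAi arrays and 32133 to 43066 on control arrays, with 4 higher. The 8 endothelial and fibroblast markers on the array summed to 1940 to 3119 on RNAi arrays and 3223 to 4139 on control arrays, without overlap. Of the 6 that passed the filter 3 were lower. The part of these shifts in the Ier2, Tob1 and Ier5 differences was not tested. In such bulk samples fewer cells of a type and less RNA per cell cannot be told apart.

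Around the members, lists of related genes were described by counts, each gene by its brightest probe set. The shares set beside these counts are of all probe sets tested, which can hold several per gene, so the units differ. The lists were also drawn up with earlier results of these data known. A count above or below such a share is therefore a description, not a test. Of 18 tested genes of the CCR4-NOT complex and poly(A) tail enzymes, 2 rose and 4 fell at 6 h in RNAi neurons, and 6 rose and 3 fell in control neurons, with list medians of -0.05 and -0.10 on the log2 scale. Of all probe sets 14.7% rose and 21.8% fell in RNAi neurons and 15.9% rose and 21.7% fell in control neurons, so the RNAi counts are near the shares of the whole table. Pabpn1, the nuclear poly(A)-binding protein, rose 1.69-fold at 1 h and 2.24-fold at 6 h in control neurons (adjusted p = 0.0046 and 5.29e-06), but its other 2 probe sets were not called at 1 h, and 1 of them, 1392480_at, was not called at 6 h either (log2 0.03). Parn, a poly(A)-specific nuclease, was lower at 6 h than at 0 h in RNAi neurons (log2 -0.64) and in control neurons (log2 -0.76). The median of all probe sets tested lay near 0.

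Over the 3 times 7 of these 18 genes were lower in RNAi neurons and 1 was higher, where 16.6% of all probe sets were lower and 17.2% higher, with a list median of -0.09. Cnot9 was the lowest (log2 -0.32, SE 0.04, adjusted p = 1.72e-05), followed by Cnot11 (log2 -0.20, SE 0.03, adjusted p = 0.000205) among the genes the naming rule gave. The 2 deadenylases that bind the BTG domain were looked up after their values were seen. Cnot7 was lower in RNAi neurons (log2 -0.25, adjusted p = 0.000386), whereas Cnot8 was not called (log2 0.01, adjusted p = 0.952).

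Of 8 decay adaptors, proteins that like TOB bring deadenylases to chosen messenger RNAs, none was called at 1 h in either arm. Of all probe sets 1.14% rose and 2.04% fell at 1 h in RNAi neurons, and 1.22% and 1.02% in control neurons. At 6 h 2 rose and 2 fell in RNAi neurons, and 3 rose and 1 fell in control neurons, where 14.7% of all probe sets rose and 21.8% fell in RNAi neurons and 15.9% and 21.7% in control neurons. Zfp36, tristetraprolin, rose 1.68-fold in RNAi neurons (log2 0.75, adjusted p = 0.000181), and Samd4b 1.37-fold (adjusted p = 6.18e-05). Cpeb3, a binding partner of TOB, was lower at 6 h than at 0 h in RNAi neurons (log2 -0.46, adjusted p = 0.0022), and so was Cpeb4 (log2 -0.35, adjusted p = 0.0129), though its other probe set missed the threshold (adjusted p = 0.175).

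Of 14 tested protein partners of BTG, TOB and IER proteins, 1 was higher and 3 were lower in RNAi neurons over the 3 times, where 17.2% of all probe sets were higher and 16.6% lower. The higher gene was Hsf1, the heat shock factor that IER5 acts on (log2 0.26, adjusted p = 0.000259), which also rose at 6 h by log2 0.50 in RNAi neurons and 0.61 in control neurons. Ppp2r5c, a PP2A subunit, was lower in RNAi neurons (log2 -0.34, adjusted p = 5.59e-06), with 1 of its other 2 probe sets called lower too. Ppp2r2d and Ppp2r5a, further PP2A subunits, rose at 6 h in control neurons (log2 0.38 each). Of 8 HSF1 heat shock targets, 6 were higher and none lower in RNAi neurons over the 3 times, where 17.2% of all probe sets were higher and 16.6% lower, with a list median of 0.17. Bag3, a co-chaperone, had a log2 difference of 0.40 (adjusted p = 0.00118), Hspe1 of 0.19 (adjusted p = 0.000443) and Dnajb1 of 0.15 (adjusted p = 0.00313), the second Dnajb1 probe set missing the threshold (adjusted p = 0.105). Hsph1 rose at 6 h by log2 0.51 in RNAi neurons and 0.44 in control neurons.

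G1 cell cycle genes, on which antiproliferative proteins act in dividing cells, had 4 of 13 higher and none lower at 6 h over 0 h in both arms, where 14.7% of all probe sets were higher and 21.8% lower in RNAi neurons and 15.9% and 21.7% in control neurons. In control neurons these were Ccnd1 (log2 0.83), Ccnd2 (log2 0.71) and Ccnd3 (log2 0.33), the D cyclins, and Cdkn1b (log2 0.85), the inhibitor p27. Cdkn1b had also risen at 1 h, by log2 0.34 in RNAi neurons and 0.47 in control neurons. Of 13 serum response and CREB regulators, 2 rose at 1 h in each arm, Crem and Srf, where 1.14% of all probe sets rose in RNAi neurons and 1.22% in control neurons. Crem, an activity-induced relative of CREB, rose by log2 2.21 in RNAi neurons and 2.23 in control neurons, while 1 of its other 4 tested probe sets, 1387714_at, was not called at 1 h in control neurons (log2 0.21). Srf rose by log2 0.39 in RNAi neurons and 0.55 in control neurons, and was lower in RNAi neurons at 1 h (log2 -0.35, adjusted p = 0.0237) and 6 h (log2 -0.36, adjusted p = 0.0198), both of which its other tested probe set, 1374829_at, shared, although that probe set was not called for the 1 h rise in RNAi neurons (log2 0.14). At 6 h Crebbp rose and Elk1 fell in both arms, by log2 0.99 for Crebbp and log2 -0.65 for Elk1 in control neurons. Other probe sets of both genes disagreed in part. For Crebbp, 1399104_at was lower at 6 h in both arms (log2 -0.58 in control neurons). Its probe set 1380027_at was higher in control neurons (log2 0.63, adjusted p = 0.0408) but not called in RNAi neurons (log2 -0.12). For Elk1, 1385063_at missed the threshold in control neurons (adjusted p = 0.106).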

How the data were processed

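Messenger RNA was measured on 18 Affymetrix arrays, 3 in each of 6 groups. The deposited values are intensities per probe set on a linear scale. Probe summarization, array normalization and genome build are not given in the sources used here. Array medians were 240 to 248, and arrays of a group correlated at 0.9933 to 0.9979. Signals under the table's 20th percentile (72.6) were set to that value before the log2 transform, which touched no member value. Probe sets above the 40th percentile of their array on at least 3 arrays were tested, 19567 of 31099.

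A linear model from limma 3.58.1 (R 4.3.3; lmFit, eBayes) gave each of the 6 groups a mean over the 18 arrays and left 12 degrees of freedom for the residual. Two-sided p-values of 12 comparisons were adjusted by Benjamini-Hochberg over all probe sets tested. Replicate numbers shared by the groups paired the arrays: deviations from group means correlated at 0.10 to 0.72 in all 45 same-numbered pairs.

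Genes were named by rule: every member probe set, from each list at most 4 genes, those of smallest adjusted p, the 3 named probe sets most correlated with each member, and Mef2a and Mef2d. The members and lists were chosen with earlier results of these data known. Probe sets with 1 symbol in the platform annotation were used, 20832 in all, with 436 carrying several and 9831 not listed. Promoters come from RefSeq, build GRCr8, found for 7 of the 8 genes.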

Additional observations from a re-analysis of the deposited data

How the results depend on the processing

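Of 665 member differences recomputed under alternatives other than leaving out an array, 654 kept their call, 5 lost it, 6 gained it and none of the called values changed sign. The member counts that moved by over 1.5 times were those of RNAi against control. At 1 h the count was 1 in place of 2 without the filter on dim probe sets and 1 when only the groups compared were fitted. Over the 3 times it was 1 in place of 3 without the filter. Leaving out 1 array at a time gave 0 to 2 members at 1 h, 1 to 3 over the 3 times and 4 to 5 for control 6 h over 0 h; the other counts stayed as reported. Of 672 member differences from such fits, 32 lost a call and 5 gained one.

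With the replicate block, members called were 6 for 6 h over 1 h in each arm, 5 for RNAi 6 h over 0 h, 3 for RNAi against control at 1 h and 4 over the 3 times. The added calls are those given above for Ier5 and Btg3, and the block changed no other member call. The block moved whole-table counts over 1.5 times, to 799 from 437 for control 1 h, 1300 from 624 for RNAi 1 h, 4430 from 2609, 4662 from 2956 and 4685 from 2933 for RNAi against control at 0, 1 and 6 h, and 173 from 28 for the interaction at 6 h. Fitting only the groups compared gave 156, 320 and 1457 for control 1 h, RNAi 1 h and RNAi against control at 0 h, and 11 for the 6 h interaction, which was 67 with the floor at the 40th percentile. With 1 probe set per gene, and so fewer tested, counts fell to 4546, 3878, 4379 and 3423 for control 6 h over 0 h and 1 h and RNAi 6 h over 0 h and 1 h, to 1624, 1869, 1883 and 4108 for RNAi against control at 0, 1 and 6 h and on average, and to 13 for the 6 h interaction. The main counts in that order were 7348, 6221, 7127, 5320, 2609, 2956, 2933, 6622 and 28. The 3 arrays per group limit the precision of every value, and signals near background understate fold changes.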
